A study of Mus musculus with 9 samples.

Results

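The tricarboxylic acid (TCA) cycle and mitochondrial fatty acid oxidation were followed through 38 genes, picked by symbol from the 26445 entries of the deposited expression table. Of these, 19 encode enzymes of the TCA cycle or enzymes linked to it, and 19 encode the carnitine shuttle, the enzymes of β-oxidation and the proteins that pass on its electrons. RNA was measured in mouse corneal epithelial cells of the cultured line iCell-0093a, wild type in every group, held at 21%, 8% or 1% oxygen. The 9 libraries, 3 at each level, were made with a kit that selects polyadenylated RNA. The time spent at each level, and whether the line is a single clone, were absent from the labels. Nothing in the labels says that replicates were separate cultures, so p-values measure only the spread between these libraries, which may be technical.

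The TCA cycle oxidises the acetyl group of acetyl-CoA in the mitochondrial matrix to carbon dioxide and hands the electrons to the respiratory chain as NADH and FADH2. Its intermediates also leave for the cytosol, where enzymes such as Aco1, Idh1, Mdh1 and Me1 act on the same metabolites. Of these, Idh1 and Me1 make cytosolic NADPH. Fatty acid oxidation feeds the cycle: carnitine carries long acyl chains into the matrix, and rounds of dehydrogenation, hydration, a second dehydrogenation and thiolysis release acetyl-CoA. Both pathways give their electrons in the end to oxygen, and low oxygen is known in many cells to slow them, in part through hypoxia-inducible factors. In corneal epithelium, glucose is the textbook main fuel, and oxygen reaches the cells largely from the air through the tear film.

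Values are FPKM, fragments per kilobase of a transcript divided by the mapped fragments of the library. This corrects for transcript length but carries no counts. Depth is therefore unknown and no counting interval is given. A library's values summed to between 317704 and 333178 FPKM, and 19837 to 20569 genes per library were above 0. The simple epithelial keratins Krt8 and Krt18 averaged 572 and 582 FPKM, whereas Pax6, the eye field regulator, and Trp63, a regulator of basal epithelia, stayed at or below 0.0208 and 0.836 FPKM. The epithelial markers Krt15 and Cldn7 were also low, at or below 0.116 and 0.193 FPKM. Of 9 listed epithelial markers 5 reached 1 FPKM in 3 or more libraries: Krt8, Krt18, Krt14, Epcam and Cdh1. Levels of Krt14, Epcam and Cdh1 are not given here. The label of a corneal epithelial cell was thus carried by some general epithelial markers. It was not carried by Krt15, Cldn7, Pax6 or Trp63. The 3 libraries at 21% oxygen were the most spread: the median deviation of 15 DNA replication genes from their own means (log2 scale) was 0.17, −0.26 and 1.03 in 21% replicates 1, 2 and 3. It was −0.47, −0.48 and −0.40 at 8%, and 0.25, 0.20 and −0.07 at 1% oxygen. The summed FPKM of 5 leukocyte markers also differed, with 19.2 to 29.8 at 21%, 42.4 to 46.7 at 8% and 32.3 to 41.5 at 1%. Nearly all of that sum was Cd68, a lysosomal protein, while the defining markers Ptprc, Adgre1 and Itgam did not exceed 0.0215 FPKM. Csf1r, the remaining marker, averaged 0.445, 1.32 and 0.776 FPKM at 21%, 8% and 1% and rose at 8% against 21% (log2 fold change 0.68, limma adjusted p = 0.00658). Stromal markers, mostly Vim, summed to 775 to 797 at 21%, 958 to 1025 at 8% and 795 to 845 at 1% oxygen. In the same list Lum, Dcn, Col3a1, Thy1 and Col1a2 did not exceed 0.275 FPKM, and Col1a1 did not exceed 1.02. Of the 8 stromal markers found, 2 reached 1 FPKM in 3 or more libraries: Vim and another whose level is not given here. The part that any of these differences has in the results below was not tested. In bulk RNA, fewer cells of a type and less RNA per cell cannot be told apart.

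Nearly the whole of both pathways was expressed. The tests took in the 11856 genes that reached 1 FPKM in 3 or more libraries, among them 18 of 19 TCA members and 17 of 19 fatty acid oxidation members. The median of the members' mean levels was 22.6 FPKM in the TCA group (from 3.50 to 86.5) and 19.1 FPKM in the fatty acid oxidation group (from 1.29 to 74.6), against 7.14 FPKM over all tested genes. The highest levels belonged to Idh2, the mitochondrial NADP-dependent isocitrate dehydrogenase, at 86.5 FPKM, Acadl, the long-chain acyl-CoA dehydrogenase, at 74.6, and Mdh2, the mitochondrial malate dehydrogenase, at 72.5. Across the 9 libraries the members varied little, with a median coefficient of variation of 7.88% in the TCA group and 7.76% in the fatty acid oxidation group, against 13.8% over all tested genes. Ogdh, a catalytic subunit of the 2-oxoglutarate dehydrogenase complex, varied least of the members, at 2.51%, and ranged from 17.7 to 19.4 FPKM.

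The 3 members that stayed out of the tests were low in all 9 libraries. Pcx (pyruvate carboxylase), which refills the cycle with oxaloacetate, measured 0.776, 0.741 and 0.648 FPKM at 21%, 0.534, 0.574 and 0.596 at 8%, and 0.717, 0.702 and 0.875 at 1% oxygen. Its 3 values at 8% were the lowest, without overlap with either other level, and no test was made of them. Cpt1c, the neuronal form of carnitine palmitoyltransferase 1, lay between 0.00852 and 0.0581 FPKM. Decr1, the mitochondrial 2,4-dienoyl-CoA reductase needed for polyunsaturated chains, lay at or below 0.104 FPKM and was listed at 0 in 8% replicate 3. The carnitine palmitoyltransferase 1 of these cells was by RNA level Cpt1a, at 14.1 FPKM on average, since Cpt1b, the muscle form, did not exceed 0.321 FPKM.

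At 8% against 21% oxygen, 5 of 18 tested TCA members passed the test and 1 of 17 fatty acid oxidation members did. The threshold was an adjusted p of 0.05 from limma, a moderated linear model on log2(FPKM + 1), with Benjamini-Hochberg adjustment over all 11856 genes. The called share was 27.8% of the TCA members and 5.88% of the fatty acid oxidation members, and 23.3% of all tested genes, of which 8.38% rose and 14.9% fell. The TCA share was thus near that of all genes, and the fatty acid oxidation share was below it. Cs rose, while Mdh2, Aco1, Me1 and Me2 fell, and in the other pathway Slc25a20 fell. At an unadjusted p under 0.05 stood 8 TCA and 5 fatty acid oxidation members, against 4504 of all 11856 tested genes. With array weights Idh3b, Dlst, Suclg1, Suclg2, Fh1, Acadm, Acads, Hadh and Hadha also passed. The direction split moved with the scaling between libraries: over all genes 35.9% of calls were higher at 8%, against 49.9% with median-ratio rescaling and 46.6% with quantile normalization. Among TCA members the split of 1 higher and 4 lower became 2 and 2 with median-ratio rescaling and stayed 1 and 4 with quantile normalization. Among fatty acid oxidation members the split of 0 higher and 1 lower became 2 higher and 0 lower, and 3 higher and 0 lower, under the same 2 settings.

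**Figure D1:**
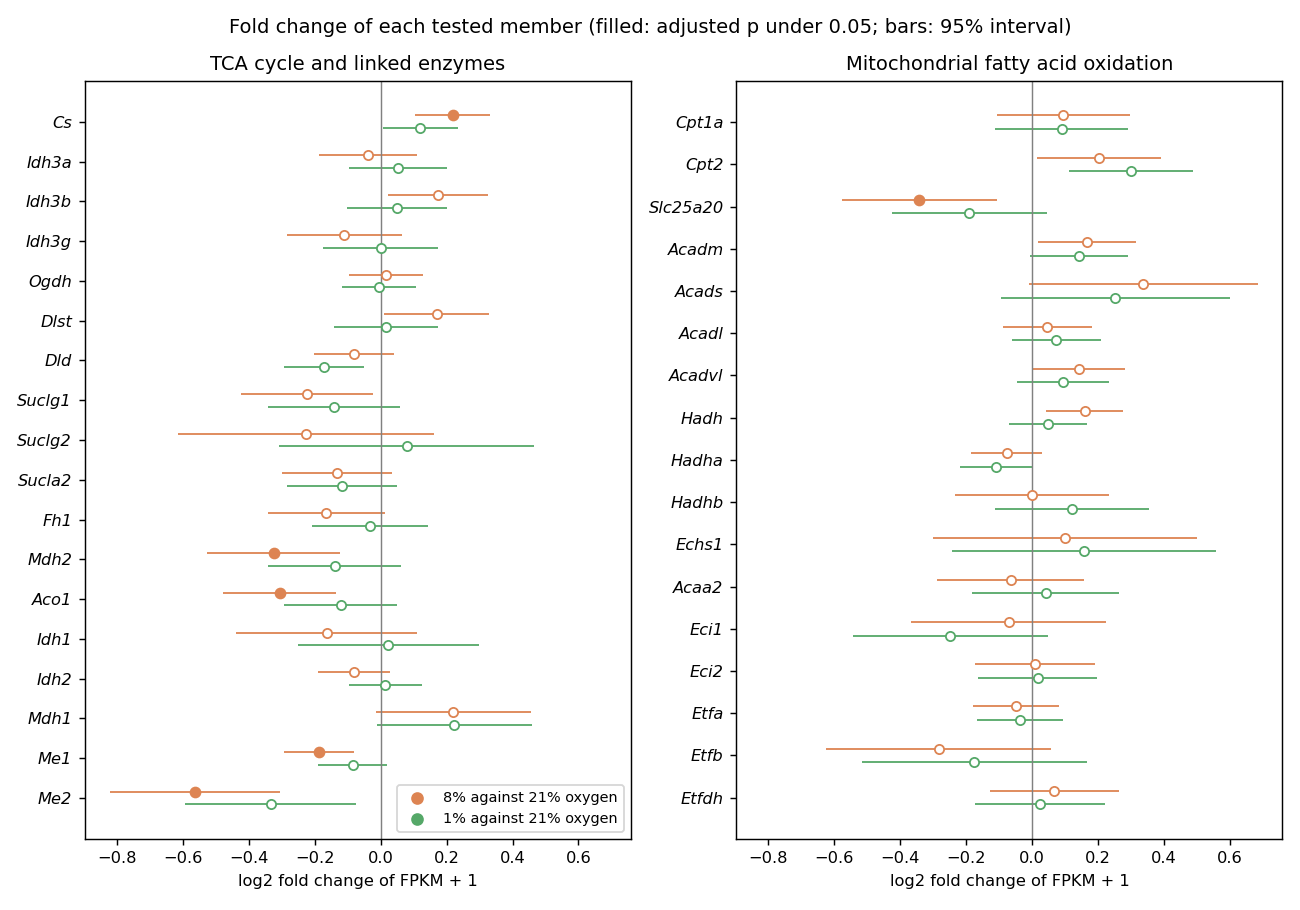
Log2 fold change of FPKM + 1 for each of the 35 tested members at 8% (orange) and 1% (green) against 21% oxygen; the 3 libraries at 21% enter both. Points are limma estimates, bars their 95% intervals, and filled points have an adjusted p under 0.05: Cs above 0, and Mdh2, Aco1, Me1, Me2 and Slc25a20 below it, all at 8% oxygen.

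Cs, citrate synthase (ENSMUSG00000005683, chromosome 10, 128337734 to 128362479, plus strand, GRCm38), condenses acetyl-CoA with oxaloacetate and so opens the cycle. It measured 50.05, 48.2 and 46.7 FPKM at 21%, 56.0, 58.1 and 54.9 at 8%, and 51.3, 54.0 and 52.5 at 1% oxygen. All values at 8% lay above all values at both other levels, and those at 1% lay above those at 21%. Cs rose to 56.4 ± 1.60 FPKM at 8% from 48.3 ± 1.67 at 21% oxygen (SD, n = 3), a log2 fold change of 0.22 (SE 0.0497, limma adjusted p = 0.0177). The call was lost without 8% replicate 1 (limma adjusted p = 0.0543) or replicate 2 (0.0561), and in a fit to the 6 libraries compared (0.0545). At 1% oxygen Cs stood at 52.6 ± 1.40 FPKM (SD, n = 3, log2 fold change 0.12 against 21%, limma adjusted p = 0.194).

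The enzymes that turn isocitrate into succinyl-CoA did not pass in any comparison in the fit to all 9 libraries without weights or rescaling. Idh3b, a subunit of the NAD-dependent isocitrate dehydrogenase, measured 33.4, 37.5 and 31.6 FPKM at 21%, 38.8, 39.8 and 37.2 at 8%, and 35.5, 34.7 and 35.8 at 1% oxygen. The values at 8% lay above those at 1% and overlapped those at 21% (log2 fold change 0.17 against 21%, limma adjusted p = 0.0936). At 8% it passed without 21% replicate 2 (0.24, limma adjusted p = 0.0189) and after median-ratio rescaling (0.22, 0.0381). Its partner subunits Idh3a and Idh3g averaged 24.1 and 17.8 FPKM, with log2 fold changes of −0.04 and −0.11 at 8% against 21%. Exons of Idh3b overlap those of Nop56 on the other strand, and no source used here gives the strand setting of the counting, so reads of the 2 genes cannot be told apart. In the 2-oxoglutarate dehydrogenase complex, Ogdh and Dlst, its core acyltransferase, had log2 fold changes of 0.02 and 0.17 at 8% against 21% (limma adjusted p = 0.840 and 0.109), and Dlst passed without 8% replicate 2 (0.24, limma adjusted p = 0.0313). Dld, the lipoamide dehydrogenase that this complex shares with pyruvate dehydrogenase, measured 38.2, 41.4 and 36.9 FPKM at 21%, 36.3, 36.5 and 37.1 at 8%, and 34.8, 34.2 and 33.8 at 1% oxygen. The libraries at 1% were the lowest, below all others. Against 21% the log2 fold change of Dld at 1% was −0.17 (SE 0.0530, limma adjusted p = 0.102), and −0.21 without 21% replicate 3, where it passed (limma adjusted p = 0.0494).

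The ligases that convert succinyl-CoA to succinate were lower on average at 8% than at 21%, none of them past the test. The shared subunit Suclg1 had a log2 fold change of −0.22 (limma adjusted p = 0.0965), the GTP-forming subunit Suclg2 of −0.23 (0.362) and the ATP-forming subunit Sucla2 of −0.13 (0.224). Suclg2 was the most scattered of the 3, from 12.4 FPKM in 8% replicate 1 to 22.4 in 1% replicate 3. Suclg1 passed when 21% replicate 3 was left out, with a log2 fold change of −0.31 (limma adjusted p = 0.0291). Fh1, fumarase, measured 22.4, 19.9 and 25.1 FPKM at 21%, 19.8, 19.8 and 19.9 at 8%, and 21.9, 22.1 and 21.5 at 1% oxygen. The values at 8% lay below all values at 1% and overlapped those at 21% (log2 fold change −0.16 against 21%, limma adjusted p = 0.156). Fh1 passed without 21% replicate 2 (−0.25, limma adjusted p = 0.0242).

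Mdh2 (ENSMUSG00000019179, chromosome 5, 135778480 to 135790398, plus strand, GRCm38) closes the cycle by oxidising malate to oxaloacetate. It measured 80.3, 70.5 and 91.4 FPKM at 21%, 63.6, 65.4 and 62.7 at 8%, and 76.2, 72.5 and 69.8 at 1% oxygen. All values at 8% were lower than all others, and the 21% libraries were widely spread. Mdh2 fell to 63.9 ± 1.40 FPKM at 8% from 80.7 ± 10.5 at 21% oxygen (SD, n = 3), a log2 fold change of −0.32 (SE 0.0886, limma adjusted p = 0.0322). The call was lost without 21% replicate 1 (limma adjusted p = 0.0782), without 8% replicate 1 (0.0848), replicate 2 (0.0663) or replicate 3 (0.0931), without 1% replicate 2 (0.0505), and after median-ratio rescaling (0.0640). It was also lost with no filter (0.0675), with the replicate block (0.0654) and in the 6-library fit (0.0752), and was kept in 8 of 17 alternatives. Mdh1, its cytosolic counterpart in the malate-aspartate shuttle, measured 44.8, 42.8 and 41.4 FPKM at 21%, 49.4, 53.7 and 47.8 at 8%, and 44.9, 59.8 and 47.5 at 1% oxygen. Here the 21% libraries were the lowest, without overlap with either other level, and the log2 fold change at 8% was 0.22 (limma adjusted p = 0.153, and 0.0490 without 1% replicate 2). The ratio of Mdh2 to Mdh1 within a library was 1.79, 1.65 and 2.21 at 21% and 1.29, 1.22 and 1.31 at 8% (1.88 ± 0.291 and 1.27 ± 0.0481, SD, n = 3). The 2 groups did not overlap, and the exact two-sided permutation test gave p = 0.1, the smallest that 3 against 3 allows (adjusted p = 0.42 over 21 tests of 7 ratios). At 1% oxygen the ratio was 1.70, 1.21 and 1.47, which overlapped both other levels. Exons of Mdh1 overlap those of Wdpcp on the other strand.

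Of Aco1, Idh1, Idh2, Mdh1 and Me1, which work in the cytosol or use NADP, Aco1 and Me1 fell at 8% oxygen and none rose, where 23.3% of all tested genes were called. Aco1 (ENSMUSG00000028405, chromosome 4, 40143081 to 40198338, plus strand, GRCm38) is the cytosolic aconitase, which binds iron-responsive elements in RNA when it lacks its iron-sulfur cluster. It measured 14.8, 12.4 and 14.4 FPKM at 21%, 11.04, 11.2 and 10.7 at 8%, and 12.2, 13.6 and 12.1 at 1% oxygen. All values at 8% lay below all others. Aco1 fell to 10.97 ± 0.269 FPKM at 8% from 13.8 ± 1.25 at 21% oxygen (SD, n = 3), a log2 fold change of −0.31 (SE 0.0753, limma adjusted p = 0.0226). The call was lost when 21% replicate 1 (limma adjusted p = 0.0725) or replicate 3 (0.0512), or 8% replicate 1 (0.0619), replicate 2 (0.0516) or replicate 3 (0.0731) was left out. It was also lost with the replicate block (0.0584) and in the 6-library fit (0.0509).

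Me1 and Me2 are the cytosolic NADP-dependent and the mitochondrial NAD-dependent malic enzyme, which both turn malate into pyruvate. Me1 (ENSMUSG00000032418, chromosome 9, 86581371 to 86695953, minus strand, GRCm38) measured 25.5, 24.7 and 26.1 FPKM at 21%, 22.5, 22.2 and 21.9 at 8%, and 23.6, 24.5 and 23.6 at 1% oxygen. The 3 levels did not overlap, with 1% oxygen in the middle. Me1 fell to 22.2 ± 0.323 FPKM at 8% from 25.4 ± 0.714 at 21% oxygen (SD, n = 3), a log2 fold change of −0.19 (SE 0.0461, limma adjusted p = 0.0226). The call was lost without 21% replicate 1 (limma adjusted p = 0.0646), without 8% replicate 1 (0.0599), replicate 2 (0.0582) or replicate 3 (0.0731), after median-ratio rescaling (0.0705), with the replicate block (0.0648) and in the 6-library fit (0.0674). Exons of Me1 overlap those of A330041J22Rik on the other strand. Me2 (ENSMUSG00000024556, chromosome 18, 73769903 to 73815449, minus strand, GRCm38) measured 4.11, 3.87 and 5.49 FPKM at 21%, 2.56, 2.51 and 3.01 at 8%, and 3.51, 3.28 and 3.19 at 1% oxygen. Its 3 levels did not overlap either, in the same order. Me2 fell to 2.69 ± 0.278 FPKM at 8% from 4.49 ± 0.873 at 21% oxygen (SD, n = 3), a log2 fold change of −0.56 (SE 0.113, limma adjusted p = 0.0111), and the call was kept in all 16 alternatives that included the gene. It was the largest change among the members, on a scale that understates changes of low genes. The ratio of Me2 to Me1 was 0.161, 0.157 and 0.210 at 21%, 0.114, 0.113 and 0.138 at 8%, and 0.149, 0.134 and 0.135 at 1% oxygen. The 21% libraries lay above those of both other levels (exact two-sided permutation test, p = 0.1 in each comparison, adjusted p = 0.42).

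The isocitrate dehydrogenases that make NADPH were expressed at high levels and did not pass. Idh1, the cytosolic and peroxisomal form, measured 34.7, 29.4 and 42.5 FPKM at 21%, 32.1, 31.0 and 30.6 at 8%, and 37.4, 37.2 and 32.7 at 1% oxygen. Idh2, the mitochondrial form, measured 86.2, 87.7 and 89.6 FPKM at 21%, 82.6, 86.3 and 80.2 at 8%, and 90.1, 87.1 and 89.0 at 1% oxygen. In both genes the 8% libraries lay below all 1% libraries. The 21% libraries of Idh1 spanned the whole range of the other levels, and its log2 fold change at 8% against 21% was −0.16 (limma adjusted p = 0.353), against −0.08 for Idh2 (0.255).

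**Figure D2:**
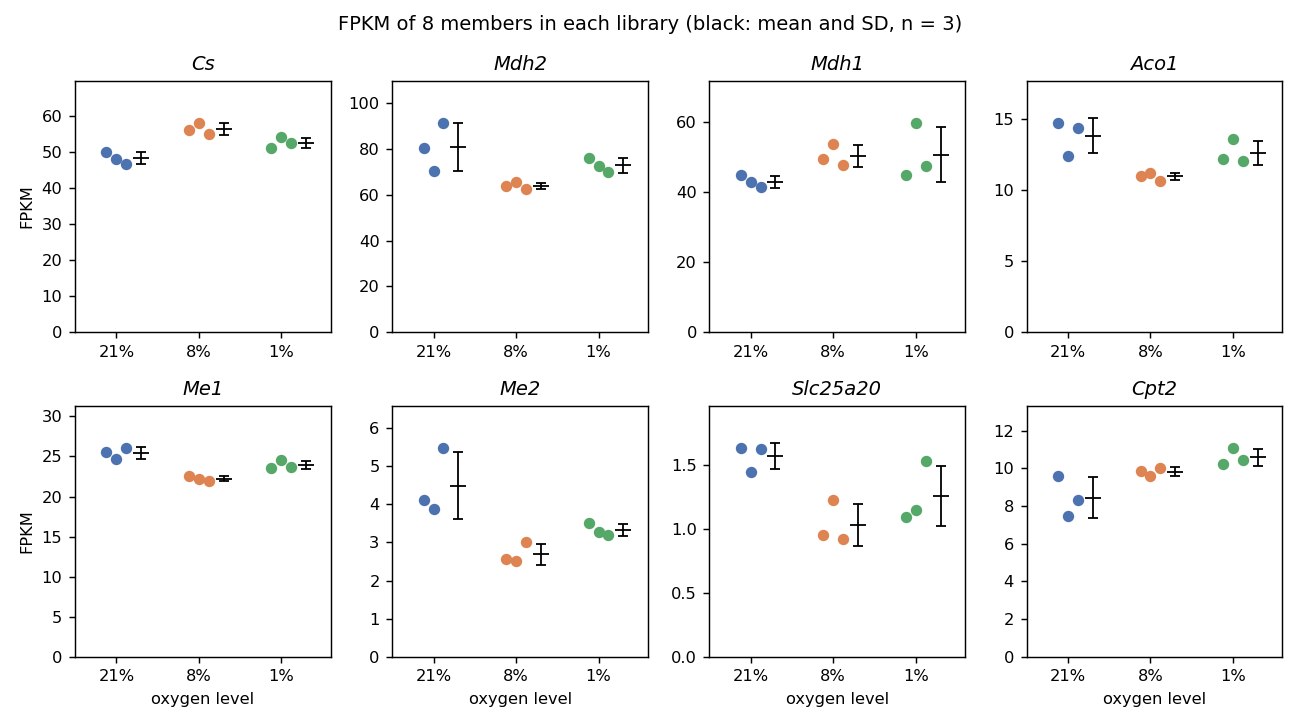
FPKM of 8 members in each library by oxygen level, with linear axes from 0; coloured points are the 3 libraries of a level and black marks their mean and SD. Cs and Mdh1 are lowest at 21% oxygen, and Mdh2, Aco1, Me1 and Me2 are lowest at 8%; Slc25a20 lies between 0.920 and 1.64 FPKM.

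Promoter windows are shown for Cs and Mdh2, which moved in opposite directions at 8% oxygen, and for Slc25a20, the called gene of fatty acid oxidation. Each runs from 250 bases before to 50 after a RefSeq transcript start on GRCm38.p6, plus strand in all 3. Capitals mark a motif that was searched for.
Cs, chr10:128337477-128337776: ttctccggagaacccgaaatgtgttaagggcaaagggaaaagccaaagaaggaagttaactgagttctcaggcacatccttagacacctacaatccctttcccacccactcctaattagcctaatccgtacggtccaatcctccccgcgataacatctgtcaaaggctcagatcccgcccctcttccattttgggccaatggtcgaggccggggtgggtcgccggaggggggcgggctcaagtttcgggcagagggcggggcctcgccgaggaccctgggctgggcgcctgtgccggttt
Mdh2, chr5:135778399-135778698: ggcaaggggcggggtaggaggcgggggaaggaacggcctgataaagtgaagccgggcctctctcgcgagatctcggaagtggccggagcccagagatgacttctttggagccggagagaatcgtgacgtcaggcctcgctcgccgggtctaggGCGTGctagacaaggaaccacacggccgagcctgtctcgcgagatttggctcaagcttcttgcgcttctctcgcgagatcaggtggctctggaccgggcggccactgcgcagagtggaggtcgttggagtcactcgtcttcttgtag
Slc25a20, chr9:108661886-108662185: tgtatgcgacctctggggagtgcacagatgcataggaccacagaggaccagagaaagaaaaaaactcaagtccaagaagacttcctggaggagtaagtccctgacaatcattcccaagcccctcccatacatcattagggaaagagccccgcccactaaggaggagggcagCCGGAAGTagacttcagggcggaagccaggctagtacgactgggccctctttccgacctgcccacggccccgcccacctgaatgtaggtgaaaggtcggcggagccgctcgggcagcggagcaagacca
The window of Cs held none of the 6 motifs, that of Mdh2 held GCGTG and that of Slc25a20 held CCGGAAGT. The search ran on both strands over the windows of 34 members that matched the RefSeq table, 17 in each pathway, and of 27025 genes in all. ACGTG, a core of the hypoxia response element, was present in 5 TCA members (Idh3g, Mdh1, Me1, Ogdh and Pcx), in 1 fatty acid oxidation member (Acadvl) and in 21.8% of all genes. GCGTG, the other core, was present in 7 TCA members, in 10 fatty acid oxidation members and in 35.2% of all genes. Either core was found in 10 of 17 members of each pathway (58.8%) and in 46.7% of all genes (cores this short are common). The GABPA motif CCGGAAGT was present in Dlst, Cpt2 and Slc25a20 and in 4.31% of all genes. The palindromic NRF1 motif was present in Etfdh and in 1.07% of all genes. The ERR motif TCAAGGTCA (0.466% of all genes) and the PPAR direct repeat (0.0481%) were found in no member window. These matches describe letters in a window and do not show binding. ACGTG and GCGTG cannot share a start, but a CACGTG on one strand gives ACGTG on both.

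Of the 17 tested fatty acid oxidation genes, Slc25a20 fell at 8% against 21% oxygen and none passed at 1%. The 95% intervals of their log2 fold changes at 8% against 21% lay between −0.63 and 0.68, with a median change of 0.0462 against −0.0399 over all tested genes. The median absolute change was 0.109 at 1% against 21%, against 0.0818 among TCA members and 0.129 over all genes. In the carnitine shuttle, Slc25a20 (ENSMUSG00000032602, chromosome 9, 108662088 to 108684641, plus strand, GRCm38) exchanges acylcarnitine for carnitine across the inner membrane. It measured 1.64, 1.45 and 1.63 FPKM at 21%, 0.954, 1.22 and 0.920 at 8%, and 1.10, 1.15 and 1.53 at 1% oxygen. The values at 8% lay below all at 21%, and those at 1% overlapped both. Slc25a20 fell to 1.03 ± 0.167 FPKM at 8% from 1.57 ± 0.105 at 21% oxygen (SD, n = 3), a log2 fold change of −0.34 (SE 0.103, limma adjusted p = 0.0448). This call was weak, being kept in 4 of the 16 alternatives that included the gene. It was lost without 21% replicate 1 (limma adjusted p = 0.115), replicate 2 (0.0525) or replicate 3 (0.0891), without 8% replicate 1 (0.120) or replicate 3 (0.127), and without 1% replicate 1 (0.0576) or replicate 2 (0.0624). It was also lost after either rescaling (0.0585 and 0.0573), with no filter (0.107), with the replicate block (0.0885) and in the 6-library fit (0.0674).

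Cpt2, which returns the acyl chain from carnitine to CoA inside the matrix, measured 9.60, 7.47 and 8.31 FPKM at 21%, 9.87, 9.59 and 10.05 at 8%, and 10.2, 11.1 and 10.4 at 1% oxygen. The 1% libraries were the highest, above all others. Its log2 fold change was 0.30 at 1% against 21% (SE 0.0824, limma adjusted p = 0.0770) and 0.20 at 8% against 21% (0.109). At 8% Cpt2 passed without 21% replicate 1, with a log2 fold change of 0.29 (limma adjusted p = 0.0361), and after quantile normalization (0.26, 0.0499). Cpt1a, which loads acyl chains onto carnitine at the outer membrane, averaged 13.5 ± 1.69, 14.5 ± 0.287 and 14.4 ± 1.03 FPKM at 21%, 8% and 1% (SD, n = 3).

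All 4 acyl-CoA dehydrogenases, which carry out the first oxidation of each round on chains of different length, had estimates above 0 at both lower levels, with none past the test. Taken singly, 5235 of 11856 tested genes had an estimate above 0 at 8% and 4748 at 1%, in comparisons that share the 21% libraries. Genes above 0 at both levels were not counted. Acadm, for medium chains, measured 16.4, 17.9 and 19.0 FPKM at 21%, 20.1, 20.7 and 19.2 at 8%, and 20.5, 19.7 and 18.8 at 1% oxygen. The 8% libraries lay above all 21% libraries (log2 fold change 0.17, limma adjusted p = 0.0988), and it passed without 21% replicate 3 (0.21, limma adjusted p = 0.04998) and after quantile normalization (0.22, 0.0478). Acads, for short chains, had the largest estimate, 0.34, with a 95% interval from −0.01 to 0.68, and 8% replicate 3 stood at 26.1 FPKM against 19.3 and 18.3 in the other two. Acads passed with the replicate block (limma adjusted p = 0.0279). Acadvl and Acadl, for very long and long chains, had log2 fold changes of 0.14 and 0.05 at 8% against 21% (limma adjusted p = 0.123 and 0.607), and Acadvl passed after median-ratio rescaling (0.19, limma adjusted p = 0.0460).

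The enzymes of the later steps of a round did not pass in the fit to all 9 libraries and 11856 genes without weights or rescaling. Hadh, the 3-hydroxyacyl-CoA dehydrogenase for shorter chains, measured 17.97, 18.5 and 18.4 FPKM at 21%, 21.1, 21.0 and 19.6 at 8%, and 18.7, 18.5 and 19.6 at 1% oxygen. The 8% libraries lay above all 21% libraries (log2 fold change 0.16, SE 0.0512, limma adjusted p = 0.0558), and the gene passed after median-ratio rescaling (0.21) and quantile normalization (0.21). Hadha, the subunit of the trifunctional protein with hydratase and dehydrogenase activity, measured 17.1, 16.5 and 16.1 FPKM at 21%, 15.4, 15.8 and 15.8 at 8%, and 15.4, 15.6 and 14.9 at 1% oxygen. The 21% libraries were the highest, above all others, with a log2 fold change of −0.11 at 1% (limma adjusted p = 0.214). Its partner Hadhb, the thiolase subunit, averaged 6.10 ± 0.531, 6.09 ± 0.314 and 6.75 ± 1.04 FPKM at 21%, 8% and 1% (SD, n = 3). The ratio of Hadhb to Hadha was 0.368, 0.333 and 0.404 at 21% and 0.409, 0.508 and 0.405 at 1%, without overlap (exact two-sided permutation test, p = 0.1, adjusted p = 0.42). Echs1, the short-chain enoyl-CoA hydratase, Acaa2, the mitochondrial thiolase, and the isomerases Eci1 and Eci2 for unsaturated chains had log2 fold changes between −0.25 (Eci1 at 1% oxygen) and 0.16 (Echs1 at 1% oxygen) against 21%. Exons of Hadha, Echs1 and Acadvl overlap genes on the other strand (Garem2, Paox and Dvl2).

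The electron transfer proteins, which pass electrons from the acyl-CoA dehydrogenases to ubiquinone, did not pass with all 9 libraries. Etfa averaged 56.7 ± 2.90, 54.8 ± 2.68 and 55.2 ± 0.837 FPKM at 21%, 8% and 1%, and Etfdh, the ubiquinone oxidoreductase, 5.05 ± 0.439, 5.34 ± 0.472 and 5.15 ± 0.394 (SD, n = 3). Etfb, the partner of Etfa, measured 18.9, 29.7 and 28.7 FPKM at 21%, 22.1, 20.1 and 19.7 at 8%, and 22.4, 21.9 and 22.6 at 1% oxygen. One 21% library, replicate 1, lay below all others and the other two above all others, so the log2 fold change of −0.28 at 8% (SE 0.149, limma adjusted p = 0.201) rested on replicates that disagreed. Without 21% replicate 1 Etfb passed (−0.48, limma adjusted p = 0.00900), and with array weights its estimate turned to 0.05 (limma adjusted p = 0.746). Etfb shares exons with 2 annotated genes on its own strand, Gm45233 and Mir7051.

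At 1% against 21% oxygen no member of either pathway passed the test (limma, adjusted p under 0.05), where 4.24% of all tested genes did. At an unadjusted p under 0.05 stood 3 TCA members (Cs, Dld and Me2) and 2 fatty acid oxidation members (Cpt2 and Hadha). Among all 11856 tested genes 2758 did. The median log2 fold change was −0.00255 in the TCA group and 0.0477 in the fatty acid oxidation group, against −0.0471 over all tested genes. With array weights 3 members of each pathway passed at 1% against 21%: Dld, Aco1 and Me2, and Acadm, Hadha and Eci1. Me2 averaged 3.33 ± 0.163 FPKM at 1% (SD, n = 3), between its levels at 21% and 8%, with a log2 fold change of −0.33 against 21% (SE 0.113, limma adjusted p = 0.128). The 2 comparisons share their 21% libraries, so their values are given side by side and not compared by overlap.

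At 1% against 8% oxygen no member passed either (limma, adjusted p under 0.05, where 0.127% of all tested genes passed). The TCA member Aco1 and no fatty acid oxidation member stood at an unadjusted p under 0.05, against 2247 of all 11856 tested genes. The groups nonetheless did not overlap in 10 of 18 TCA members (55.6%) and in 1 of 17 fatty acid oxidation members (5.88%), against 33.1% of all tested genes (16.3% higher and 16.8% lower at 1%). Of these 10, Fh1, Mdh2, Aco1, Idh1, Idh2, Me1 and Me2 were higher at 1% than at 8%, and Cs, Idh3b and Dld were lower. The fatty acid oxidation member without overlap was Cpt2, higher at 1%. The same count at 8% against 21% was 6 of 18 TCA members (33.3%) and 4 of 17 fatty acid oxidation members (23.5%), against 40.9% of all genes. At 1% against 21% it was 5 of 18 (27.8%) and 2 of 17 (11.8%), against 28.3%.

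Across the 3 levels the pathways were ordered differently. The level with the lowest mean was 8% oxygen for 12 of 18 TCA members (66.7%) and for 5 of 17 fatty acid oxidation members (29.4%), against 40.6% of all tested genes. It was 21% oxygen for 4 TCA members and 10 fatty acid oxidation members (58.8%), against 29.7% of all genes. Rescaling, an alternative chosen after seeing the data, changed these counts. With 8% lowest they were 11 TCA and 3 fatty acid oxidation members after median-ratio rescaling (37.9% of all genes) and 12 and 3 after quantile normalization (38.01%). With 21% lowest they were 6 and 12 (37.2% of all genes) and 5 and 11 (36.4%) under the same settings. The moderated F test over the 3 levels called Me2 (limma adjusted p = 0.0294) and Cs (0.0451), which is 2 of 18 TCA members and 0 of 17 fatty acid oxidation members, where 16.3% of all genes were called. The call of Cs was lost when any 1 library was left out (limma adjusted p from 0.0622 to 0.114). It was also lost with no filter (0.0524) and with the replicate block (0.103), and was kept in 5 of 16 alternatives. That of Me2 was lost without any 1 library other than 21% replicate 2 or 3 (0.0503 to 0.0822) and after quantile normalization (0.0516). With no filter (0.0735) and with the replicate block (0.0545) Me2 was lost too, and it was kept in 5 of 15 alternatives. At an unadjusted p under 0.05 stood 6 and 3 members, against 4174 of all 11856 tested genes. The difference between the pathways was not tested, since the members were chosen with results known.

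**Figure D3:**
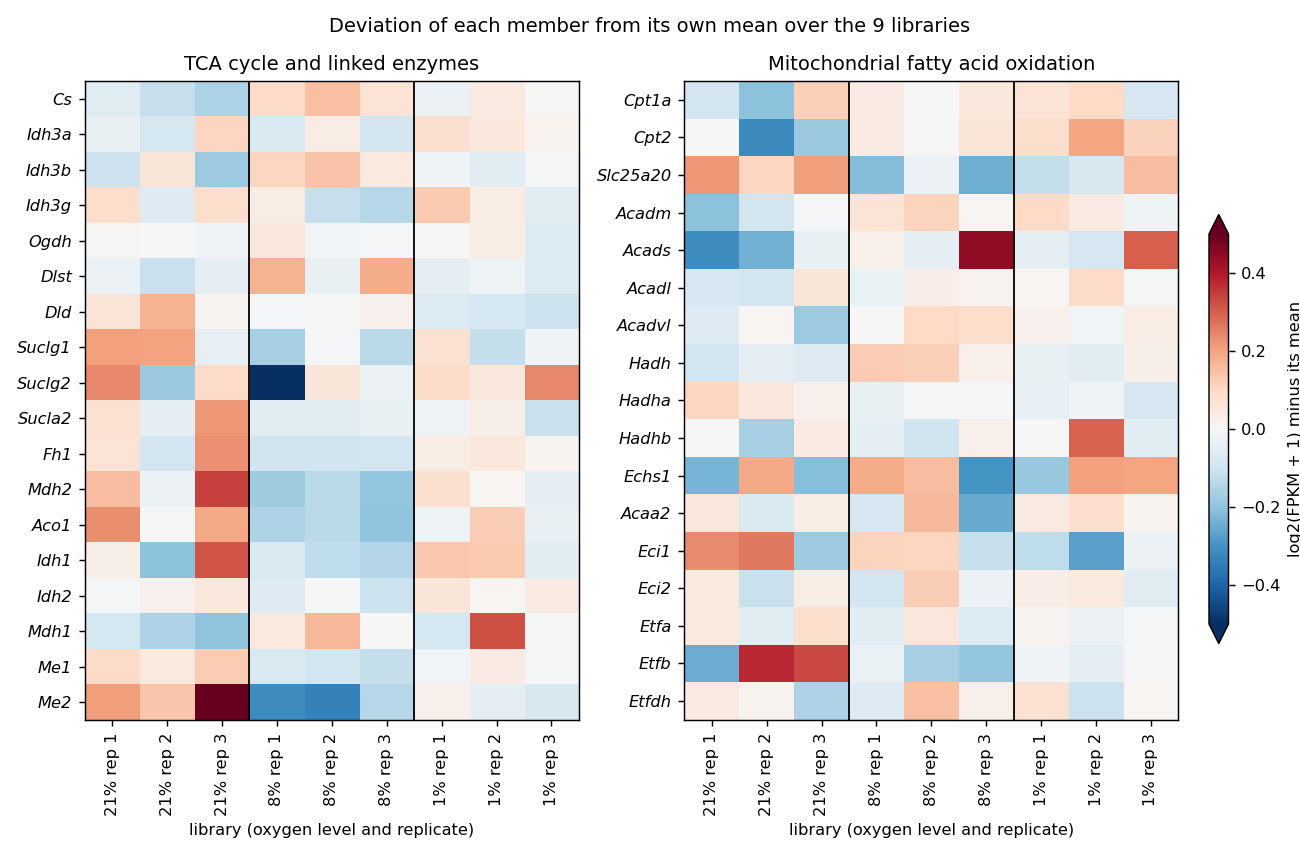
Deviation of log2(FPKM + 1) from the member's own mean over the 9 libraries, for the 18 tested TCA members (left) and 17 tested fatty acid oxidation members (right); red is above and blue below the mean, and black lines part the oxygen levels. The block from Sucla2 to Idh2 with Me1 and Me2 lies below the mean in all 3 libraries at 8% oxygen, in part only slightly. Cs and Idh3b are red there, and the right panel has no such block.

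By library, the median deviation of the TCA members was 0.065, −0.037 and 0.092 in 21% replicates 1 to 3, −0.070, −0.025 and −0.094 at 8%, and 0.015, 0.036 and −0.026 at 1% oxygen. The highest value fell in 21% replicate 3, the library with the highest DNA replication genes, and 8% oxygen, with the lowest, had 3 negative medians. What part DNA replication has in this was not tested. The corresponding medians of the fatty acid oxidation members lay between −0.053 and 0.059 and were of both signs at each level. The summed FPKM of the TCA members was 1.69, 1.58 and 1.66 times that of the fatty acid oxidation members at 21%, 1.54, 1.54 and 1.53 times at 8%, and 1.62, 1.63 and 1.56 times at 1% oxygen. The 8% libraries thus had the lowest ratios, below all others. Without Idh2 and Mdh2, the 2 most abundant TCA members, the ratios were 1.19, 1.11 and 1.14 at 21%, 1.11, 1.11 and 1.11 at 8% and 1.14, 1.17 and 1.10 at 1%, and the levels overlapped.

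**Figure D4:**
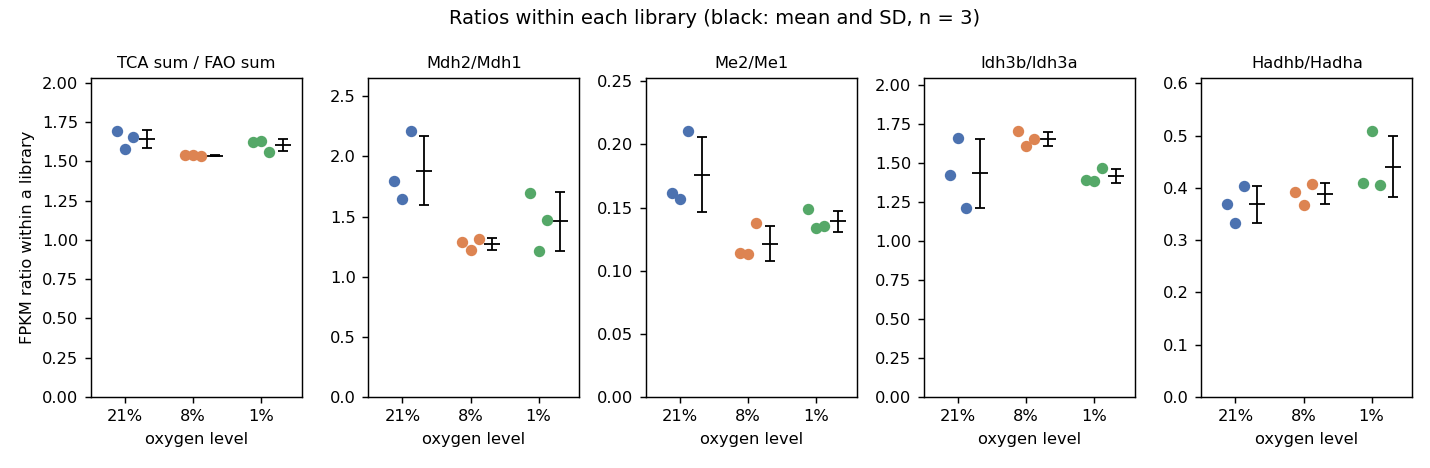
Ratios of FPKM within each library by oxygen level, for the summed TCA over the summed fatty acid oxidation (FAO) members and for 4 pairs of partner genes, on linear axes from 0; coloured points are libraries and black marks the mean and SD of 3. Mdh2/Mdh1 and Me2/Me1 at 8% oxygen lie below all libraries at 21%.

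Genes around the TCA cycle, from lists that were also drawn up with earlier results known, were read in the same test at 8% against 21%. That test called 23.3% of all tested genes, 8.38% higher and 14.9% lower at 8%. In the pyruvate dehydrogenase complex, which makes acetyl-CoA from pyruvate, 1 of 7 rose and 2 fell. Pdhb, its E1 beta subunit, fell to 25.9 ± 0.519 FPKM at 8% from 30.5 ± 0.251 at 21% oxygen (SD, n = 3), a log2 fold change of −0.23 (limma adjusted p = 0.0143). Pdhx, the E3-binding subunit, fell by 0.34 on the log2 scale (limma adjusted p = 0.0393, lost without any 1 library other than 21% replicate 2, up to 0.114, and kept in 3 of 16 alternatives). Pdp2, a phosphatase that switches the complex on, rose by 0.38 on the log2 scale (limma adjusted p = 0.0314, lost without any 21% library, 8% replicate 2 or 8% replicate 3, up to 0.0817, and kept in 9 of 16). Among succinate dehydrogenase and its assembly factors, 1 of 8 rose and 1 fell. Sdhd, a membrane anchor subunit, rose to 88.3 ± 1.901 FPKM at 8% from 71.7 ± 4.55 at 21% oxygen (SD, n = 3), a log2 fold change of 0.30 (limma adjusted p = 0.0114). Sdha, the flavoprotein subunit, fell by 0.17 on the log2 scale (limma adjusted p = 0.0426, lost without any 1 library other than 21% replicate 3, up to 0.130, and kept in 5 of 17 alternatives).

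The enzymes that link glutamate and aspartate to the cycle had estimates below 0 in 7 of 7 genes at both lower oxygen levels, and in 6 of 7 at 8% after median-ratio rescaling. Of all 11856 tested genes, 6621 had an estimate below 0 at 8% and 7108 at 1%, and both comparisons use the same 21% libraries. Genes below 0 at both levels were not counted. At 8% oxygen 3 fell and none rose (42.9% called, against 23.3% of all tested genes). Gpt2, the mitochondrial alanine transaminase, which makes 2-oxoglutarate from glutamate, measured 21.8, 19.1 and 19.8 FPKM at 21%, 12.9, 12.2 and 11.3 at 8%, and 11.9, 10.5 and 12.8 at 1% oxygen. The 21% libraries were the highest by a wide margin. Gpt2 fell at 8% (log2 fold change −0.69, SE 0.0865, limma adjusted p = 0.00219) and at 1% (−0.74, limma adjusted p = 0.00738). Aldh18a1, which begins proline synthesis from glutamate, fell to 41.0 ± 1.44 FPKM at 8% from 58.1 ± 3.63 at 21% oxygen (SD, n = 3), a log2 fold change of −0.49 (limma adjusted p = 0.00598). It also fell at 1%, by 0.44 on the log2 scale (limma adjusted p = 0.0294, lost without 21% replicate 1 or 2, 8% replicate 1, or 1% replicate 1 or 2, up to 0.117, and kept in 9 of 17 alternatives). Got2, the mitochondrial aspartate transaminase of the malate-aspartate shuttle, fell by 0.22 on the log2 scale at 8% (limma adjusted p = 0.0223, lost without 21% replicate 1, 8% replicate 1 or 8% replicate 3, up to 0.0755). Got2 was also lost after median-ratio rescaling (0.0603), with the replicate block (0.0615) and in the 6-library fit (0.0668). Of 7 carriers of TCA intermediates 3 fell at 8% oxygen (42.9% called, against 23.3% of all tested genes). Slc25a11, the 2-oxoglutarate carrier of the same shuttle, fell to 22.4 ± 1.78 FPKM at 8% from 29.4 ± 1.79 at 21% oxygen (SD, n = 3), a log2 fold change of −0.38 (limma adjusted p = 0.0105). Slc25a10, the dicarboxylate carrier, fell by 0.55 (limma adjusted p = 0.0272, lost without 21% replicate 1 or any 8% library, up to 0.0812, and kept in 10 of 16 alternatives). Slc25a12, an aspartate-glutamate carrier, fell by 0.23 (limma adjusted p = 0.0395, lost without any 1 library other than 21% replicate 3, up to 0.122, and kept in 3 of 16).

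Genes around fatty acid oxidation were read in the same way, where 23.3% of all tested genes were called at 8% against 21%. Of 9 genes for uptake, activation and carnitine handling, Slc27a1, a fatty acid transport protein, fell by 0.30 on the log2 scale at 8% (limma adjusted p = 0.0497, lost without 21% replicate 1 or 2, any 8% library or 1% replicate 1, up to 0.132, and kept in 5 of 17 alternatives). Of 16 other mitochondrial acyl-CoA enzymes 1 rose and 3 fell (25% called, near the share of all genes). Pccb, a subunit of propionyl-CoA carboxylase, which handles the last unit of odd chains, measured 5.66, 4.81 and 5.93 FPKM at 21%, 2.80, 3.08 and 2.53 at 8%, and 4.41, 4.16 and 4.71 at 1% oxygen. The 3 levels did not overlap, with 8% the lowest. Pccb fell at 8% (log2 fold change −0.76, SE 0.0895, limma adjusted p = 0.00182), while its partner Pcca had a log2 fold change of −0.02. Acat1, the acetoacetyl-CoA thiolase, fell by 0.45 (limma adjusted p = 0.0195, lost without 8% replicate 2 or 3, up to 0.0622, and kept in 14 of 17 alternatives). The acyl-CoA thioesterase Acot2 fell by 1.13 (limma adjusted p = 0.0281, lost without 21% replicate 1 or 2 or any 8% library, up to 0.0856, and kept in 8 of 16), and Acot13, another thioesterase, rose by 0.73 (0.0261, lost without any 8% library, up to 0.0766, and kept in 12 of 17). At 1% against 8% oxygen none of these genes passed in the unweighted fit to all 9 libraries, nor did any at 1% against 21% apart from Gpt2 and Aldh18a1. With array weights Pdhb, Sdha, Sdhd, Got2, Slc25a11, Slc25a12, Slc27a1, Acot2, Acot13 and Pccb also passed at 1% against 21% (limma adjusted p from 0.0057 to 0.0441). Leaving out 21% replicate 3 brought Sdhd (0.24, limma adjusted p = 0.0482), Slc27a1 (−0.41, 0.0348) and Acot2 (−1.12, 0.0303) past the test at 1% against 21%. At 1% against 8%, Pccb passed without 21% replicate 2 (0.51, limma adjusted p = 0.0443) or replicate 3 (0.0325), and Acat1 without 21% replicate 3 (0.30, 0.0302). Both genes also passed in the 6-library fit (limma adjusted p = 0.0341 each) and with array weights (0.01003 and 0.0271). Array weights also brought Pdhx (limma adjusted p = 0.0272) and Slc25a10 (0.0448) past the test there.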

How the data were processed

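The authors deposited gene-level FPKM values for 26445 entries in 9 libraries. Per the submitters' processing notes, reads were handled with HISAT2 (2.0.4), StringTie (1.3.4d), cutadapt (1.9.1) and FastQC (0.11.8) on build mm10. Annotation release and strand setting: not given in the sources used here. Thus reads shared with near-identical copies or antisense genes (overlapping 9 members) may have been divided in an unknown way. FPKM depends on the other transcripts of a library, so scaling can shift all fold changes.

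Values were tested as log2(FPKM + 1) in R 4.3.3 with limma 3.58.1 (trend, two-sided, Benjamini-Hochberg over 11856 genes reaching 1 FPKM in 3 or more libraries). All 9 libraries entered 1 model of group means and shared 1 estimate of the spread. Positive log2 fold changes mean higher at the lower oxygen level. The 7 partner ratios were tested by exact permutation over libraries. The code was tested on simulated data. Alternatives were another pseudocount (0.1), 2 other filters, 2 rescalings, array weights, a replicate block, fits to 6 libraries, and each library left out, 17 in all. The rescaled order of levels was added after seeing the data.

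Coordinates are 1-based from GENCODE M21 on GRCm38, the assembly of mm10. Promoters are from RefSeq (GRCm38.p6). Members and lists were chosen with earlier results of these data known. Values in every library are given for members called or, since fewer than 12 were, also for those whose groups did not overlap in some comparison; up to 4 called genes were named per further list. Acads, Etfb, Pcx and the remaining members are given because every member is accounted for, with per-library values chosen after they were seen. Slc25a21 was not analysed here. Some genes of the further lists are not reported here.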

Additional observations from a re-analysis of the deposited data

How the results depend on the processing

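Over 1776 combinations of a member, a comparison and an alternative, 1705 kept their side of the threshold, 38 lost a call and 33 gained one. No estimate called in either fit changed sign, but 74 uncalled ones did. At 8% against 21% oxygen the count of called TCA members (5) was 10 with array weights, 2 with the replicate block and 1 in the fit to the 6 libraries compared, and 1 to 7 with a library left out. The count of called fatty acid oxidation members (1) was 0 with no filter, 2 after median-ratio rescaling, 3 after quantile normalization, 5 with array weights and 0 in the 6-library fit, and 0 to 2 with a library left out. Over all genes (2765) it was 4994 with array weights and 1606 in the 6-library fit, and 1477 to 2981 with a library left out. At 1% against 21%, array weights called 3 TCA and 3 fatty acid oxidation members, and leaving out a library gave 0 to 1 TCA members. Over all genes (503) the counts were 222 with no filter, 333 after quantile normalization, 3064 with array weights, 72 with the replicate block, 64 in the 6-library fit and 63 to 878 with a library left out. At 1% against 8%, array weights called 1 TCA member. Over all genes (15) the counts were 4 with no filter, 56 with a mean of at least 5 FPKM, 1488 with array weights, 1 with the replicate block, 484 in the 6-library fit and 1 to 433 with a library left out. The F test over the 3 levels called 2 TCA members, 0 fatty acid oxidation members and 1928 genes. These counts were 1, 0 and 1105 with no filter, 2, 1 and 1846 with median ratios, 1, 1 and 1672 with quantiles, 9, 6 and 5231 with array weights and 0, 0 and 756 with the replicate block. With a library left out they ran from 0 to 4, 0 to 2 and 775 to 2241. The cause of these shifts was not tested. The weights ran from 0.258 (21% replicate 3) to 4.14 (21% replicate 1) and were estimated gene by gene, since the default estimate did not converge. Whether same-numbered libraries were paired is not given in the labels. Their deviations from the group means had correlations from −0.303 to 0.095, which cannot settle it. Depth is unknown, so no limit from counting can be given, and Slc25a20, Pcx, Cpt1c and Decr1 near or under 1 FPKM are the least certain levels.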

Other observations

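Peroxisomes shorten very long chains before mitochondria take them over. Of 10 tested peroxisomal genes 0 rose and 1 fell at 8% against 21% oxygen, where 23.3% of all tested genes were called. Pecr, a trans-2-enoyl-CoA reductase, stood at 6.55 ± 0.632 FPKM at 21%, 4.94 ± 0.359 at 8% and 6.48 ± 0.815 at 1% (SD, n = 3, log2 fold change −0.34 at 8% against 21%, limma adjusted p = 0.0394). This call was lost without 21% replicate 1 or 2, any 8% library, or 1% replicate 2 or 3 (up to 0.118), after either rescaling (0.0598 and 0.0718), with no filter (0.0859) and in the 6-library fit (0.0515), and was kept in 6 of 17 alternatives.

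Among 9 tested transcription regulators of oxidative metabolism 0 rose and 1 fell at 8% oxygen, where 23.3% of all tested genes were called. Rxra, the partner of PPAR receptors, measured 8.40, 7.79 and 9.36 FPKM at 21%, 6.30, 5.95 and 6.49 at 8%, and 7.79, 7.24 and 7.46 at 1%. The 8% libraries were the lowest, below all others (log2 fold change −0.39 against 21%, SE 0.0717, limma adjusted p = 0.00817). Ppara, Pparg and Ppargc1a, regulators of fatty acid oxidation in liver, fat and muscle, did not exceed 0.0127, 0.0373 and 0.0138 FPKM in any library. Ppard, Esrra and Gabpa were present, with means of 7.13, 8.07 and 18.8 FPKM at 21%, and did not pass in any comparison.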
